A study of Mus musculus with 23 samples.

Results

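The Hedgehog pathway genes *Ihh*, *Ptch1*, *Hhip*, *Smo*, *Sufu*, *Gli1*, *Gli2* and *Gli3* were followed in mouse liver after treatment with the PXR ligand pregnenolone 16α-carbonitrile (PCN). The members were all array probes that carry 1 of these 8 gene names, out of 37074 names on the array. They comprised 17 of 56605 probes. *Ihh* was chosen by its normalized signal, as the largest fall after PCN in WT and in Pxr-/- mice alike. That rank was read among genes called lower, by the rule given below, that had a RefSeq name. Such a name was held by 15099 of the 21056 genes tested. Because of this choice, the changes of *Ihh* in these comparisons are given as a description without a test. The other 7 genes were added as the core of its signalling pathway.

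Liver RNA of 23 male mice on a C57Bl6/J background was hybridised to 1-colour Agilent arrays, 1 array per mouse. WT mice were purchased at 6 weeks of age, and Pxr-/- mice, which lack the nuclear receptor PXR, had been bred in the facility for 10 years and backcrossed to the same background. All mice were acclimatized for 2 weeks and were injected into the peritoneum once a day for 4 days, with corn oil alone (WT CONT and Pxr-/- CONT, n = 6 each) or with PCN at 100 mg/kg in corn oil (WT PCN, n = 5, and Pxr-/- PCN, n = 6). Livers were taken at ZT6 from animals that the labels call fed, 6 h after the last dose. One of the 6 mice allocated to WT PCN was not analysed here. The age of the Pxr-/- mice was not given, and genotype cannot be told apart from colony in any comparison of WT with Pxr-/- mice.

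Hedgehog proteins (Sonic, Indian and Desert, encoded by *Shh*, *Ihh* and *Dhh*) are secreted ligands. They bind Patched (*Ptch1*), a receptor that in the absence of ligand holds the membrane protein Smoothened (*Smo*) inactive. Active Smoothened releases the Gli transcription factors (*Gli1*, *Gli2*, *Gli3*) from their restraint by Sufu, and *Ptch1*, *Hhip* and *Gli1* are themselves classical targets of Gli. In the liver the pathway is best known from bile duct cells and from hepatic stellate cells during repair and fibrosis. Whole liver holds all of these cells, so fewer cells of a type and less RNA per cell cannot be told apart here.

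Between 29510 and 33321 probes were well above background per array, and 32087 probes of 21056 genes were kept. A probe passed this filter where more than 50% of the arrays in any 1 group had it well above background. The hepatocyte genes *Alb*, *Apoa1*, *Ttr*, *Serpina1a* and *Cps1* were each brighter than at least 94.2% of the kept probes. The single probe for the deleted gene, *Nr1i2*, overlapped between all groups, with normalized log2 signals of 10.63 to 12.46 in WT and 10.16 to 12.41 in Pxr-/- mice. Whether it lies in the deleted stretch is not given in the sources used here, so it does not check the genotype labels. *Cyp3a11*, a known PXR target, stood at 16.90 to 17.29 in WT PCN against 12.83 to 14.02 in WT CONT mice, and its groups overlapped in Pxr-/- mice (13.33 to 14.78 against 14.14 to 15.13).

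*Ihh* encodes the ligand Indian hedgehog and was read by a pair of 60-base probes on the minus strand of chromosome 1. Probe 1 lies at chr1:74991906-74991965 and probe 2 at chr1:74994421-74994480 in build mm9. No annotation of that build was used, so the exon or UTR they lie in is not stated. The last 30 bases of each are shown because all *Ihh* values below rest on these probes. Capitals mark the letters AATAAA, the common polyadenylation signal, which occur in the end of probe 1 alone.
Ihh probe 1: atgttttggtctttcttttgtAATAAAaat
Ihh probe 2: agtgcccgaccagaagcctagagtttcaga

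Hepatic *Ihh* was high in both control groups and low in both PCN groups. On probe 1, which was well above background on all 23 arrays, the normalized log2 signal ranged from 9.29 to 10.63 with a median of 10.16 in WT CONT mice. In the 5 WT PCN mice it was 6.44, 7.12, 7.88, 6.88 and 6.54. In Pxr-/- CONT mice it ranged from 9.28 to 10.53 with a median of 10.03, and in Pxr-/- PCN mice from 7.68 to 8.83 with a median of 7.93. Every PCN-treated mouse lay below every control mouse of its own genotype, by a gap of more than 1 log2 unit in WT mice. Pxr-/- PCN replicate 6, at 8.83, came closest to its controls. Among all genes tested, 12.4% had groups that did not overlap in WT mice and 3.15% in Pxr-/- mice, and no test was made on *Ihh*, which was selected for this fall.

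The fitted change of *Ihh* on probe 1 was -3.04 on the log2 scale in WT mice, an 8.21-fold lower signal, and -1.96 in Pxr-/- mice, 3.88-fold lower. As background, 2.39% of the 21056 genes tested were called lower after PCN in WT mice and 0.86% in Pxr-/- mice, where a call is a limma adjusted p of at most 0.05 with a change above 1.5-fold. Among the genes called lower that had a RefSeq name, the next largest falls in WT mice were those of *Cyp26b1* (-2.76) and *Clec2h* (-2.57). In Pxr-/- mice they were those of *Trib3* (-1.75) and *Raet1e* (-1.62). On the scanner's own linear scale, the background-subtracted signal of probe 1 averaged 1173 ± 472 (SD, n = 6) in WT CONT and 119 ± 65.7 (n = 5) in WT PCN mice. Among Pxr-/- mice the averages were 989.8 ± 281 (n = 6) without PCN and 242 ± 83.0 (n = 6) with it.

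**Figure D1:**
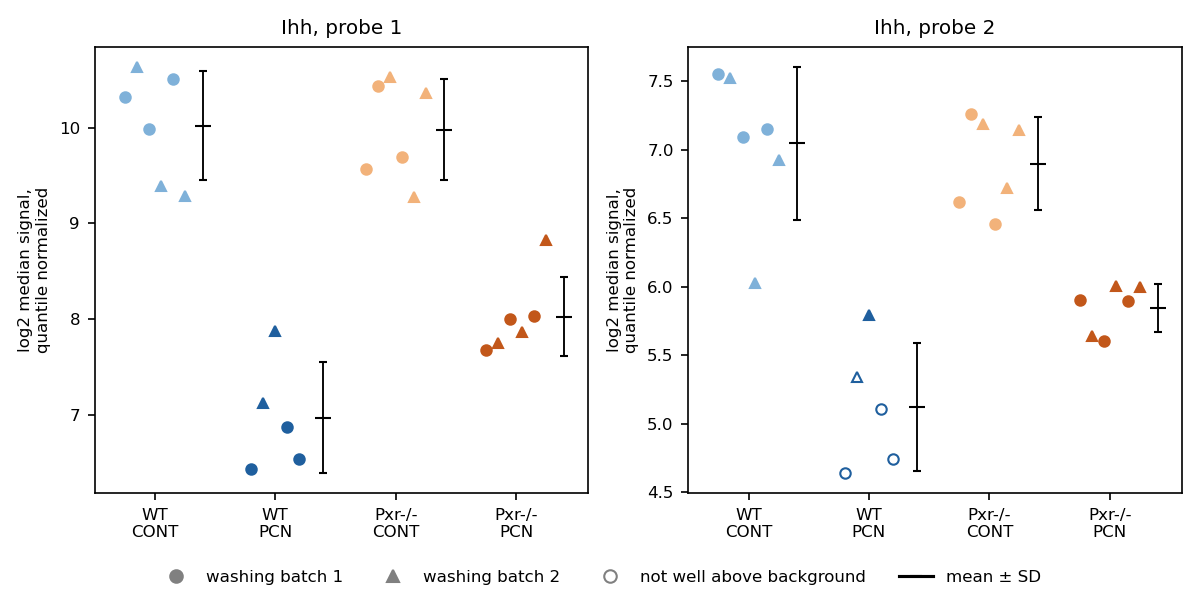
Normalized log2 signal of both *Ihh* probes on each of 23 arrays, by group, with circles for washing batch 1, triangles for washing batch 2, open symbols for arrays where the probe was not well above background and black bars for mean ± SD. On probe 1 the WT PCN arrays lie between 6.44 and 7.88 and the WT CONT arrays between 9.29 and 10.63.

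Ordered by mean signal on probe 1, the groups ran from WT CONT (10.02 ± 0.57, SD, n = 6) and Pxr-/- CONT (9.98 ± 0.53, n = 6) through Pxr-/- PCN (8.03 ± 0.42, n = 6) to WT PCN (6.97 ± 0.58, n = 5). The control groups overlapped almost completely and differed by -0.04 (Pxr-/- minus WT). Between the PCN groups the overlap was limited to WT PCN replicate 3, which at 7.88 lay above 3 of the 6 Pxr-/- PCN mice. The fall was larger in WT than in Pxr-/- mice by 1.08 log2 units, again as a description. The size of this gap differed between the washing batches, the groups of arrays washed together. In batch 1 the fall was -3.66 in WT and -1.997 in Pxr-/- mice, a gap of -1.66. In batch 2 the falls were -2.27 and -1.91, a gap of -0.36. Batch 2 held only 2 WT PCN arrays, replicate 2 at 7.12 and replicate 3 at 7.88. Averaged over control and PCN mice, *Ihh* was 0.50 higher in Pxr-/- than in WT mice. This too is a description without a test, because the average takes in the gap between the falls by which *Ihh* was chosen. Of all genes, 0.304% were called higher and 0.518% lower in Pxr-/- mice in that comparison.

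Probe 2 was dimmer and gave smaller falls in the same direction. Its signal ranged from 6.03 to 7.55 with a median of 7.12 in WT CONT mice and was 4.64, 5.34, 5.79, 5.11 and 4.74 in WT PCN mice. It ranged from 6.46 to 7.26 in Pxr-/- CONT and from 5.61 to 6.01 in Pxr-/- PCN mice. The treated and control groups did not overlap on this probe either, although WT CONT replicate 4 (6.03) and WT PCN replicate 3 (5.79) lay near each other. The fitted changes were -1.91 in WT and -1.06 in Pxr-/- mice. Probe 2 was well above background on 1 of the 5 WT PCN arrays and on all 18 others, so its fall in WT mice was measured mostly against signals near background.

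Genes that mark cell types or neighbouring tissue were read beside *Ihh*, and most were not called after PCN. Of the 5 hepatocyte genes, *Apoa1* was called higher in Pxr-/- mice (0.62, limma adjusted p = 9.55e-04), beside 1.42% of all genes. None of them was called in WT mice. *Fabp2*, the intestinal fatty acid-binding protein and the only kept marker of 6 for intestine or pancreas, fell in WT (-1.55, limma adjusted p = 1.09e-06) and in Pxr-/- mice (-0.81, adjusted p = 0.00394). It was bright, with a log2 signal of 13.81 to 14.72 in WT CONT and 12.43 to 12.88 in WT PCN mice. In Pxr-/- mice it ranged from 13.65 to 14.48 in CONT and from 12.96 to 13.70 in PCN animals. The other 5 markers of that list (*Vil1*, *Cdx2*, *Cela3b*, *Prss2*, *Pnlip*) did not pass the filter on background. Of 7 periportal hepatocyte markers, *Pck1* was called lower in WT (-1.70, adjusted p = 1.23e-04) and *Gls2* in Pxr-/- mice (-0.76, adjusted p = 0.0182). Neither was called in the other genotype, and 2.39% of all genes were called lower in WT and 0.86% in Pxr-/- mice. The log2 of the summed periportal signal ranged from 17.94 to 18.40 in WT CONT, 17.54 to 17.85 in WT PCN, 18.05 to 18.53 in Pxr-/- CONT and 17.60 to 18.08 in Pxr-/- PCN mice. None of 8 pericentral, 6 endothelial, 6 Kupffer and 2 kept lymphocyte markers was called after PCN in either genotype by limma. At an unadjusted p under 0.05, 4 of the pericentral, 3 of the endothelial and 0 of the others passed in WT mice, and 3, 3 and 0 in Pxr-/- mice, where 35.9% of all genes passed in WT and 22.9% in Pxr-/- mice. The part of these cells in the fall of *Ihh* was not tested.

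**Figure D2:**
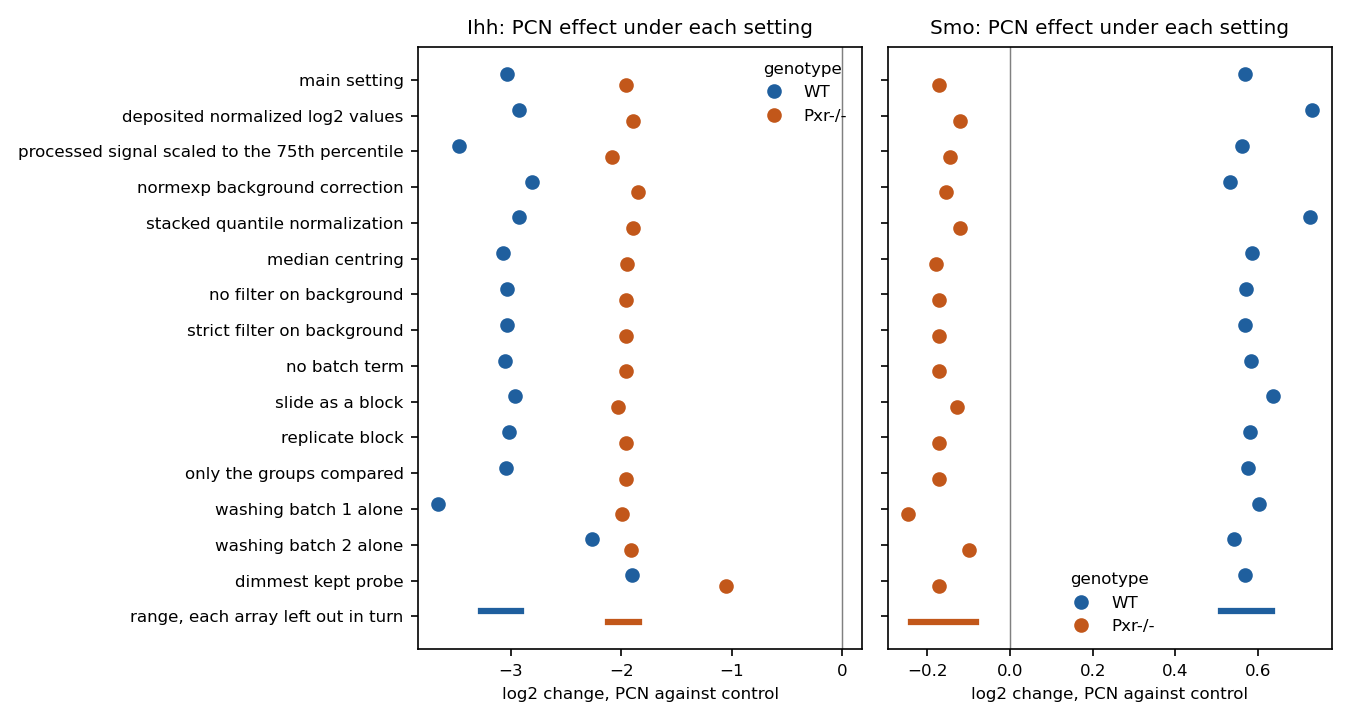
Fitted log2 change of *Ihh* (left) and *Smo* (right) after PCN in WT and Pxr-/- mice under the setting of the text and each alternative, with bars at the bottom for the range over fits that left out 1 array each. The horizontal axes differ, and *Ihh* lies below 0 in both genotypes under each setting, from -3.66 to -1.91 in WT mice.

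Neither receptor gene was called after PCN in either genotype. *Ptch1*, which both binds the ligand and is a target of the pathway, ranged from 8.20 to 8.76 with a median of 8.63 in WT CONT mice on its brightest probe (chr13:63638793-63638852, mm9, minus strand). In WT PCN mice it was 8.18, 7.85, 8.68, 8.002 and 8.31. In Pxr-/- mice it ranged from 8.15 to 8.63 in CONT and from 8.15 to 9.01 in PCN animals. The groups overlapped in both genotypes. The change was -0.38 in WT mice (SE 0.14, limma adjusted p = 0.0582) and 0.18 in Pxr-/- mice (SE 0.14, adjusted p = 0.492), and neither was called.

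The difference between these *Ptch1* changes was -0.56 (95% interval -0.97 to -0.15, limma adjusted p = 0.177). It was called when WT PCN replicate 3 was left out, at -0.71. The dimmer probes 2 and 3 of *Ptch1* changed by -0.22 and -0.19 in WT mice and by -0.10 and -0.12 in Pxr-/- mice. They gave differences between genotypes of -0.12 and -0.07, so the contrast on probe 1 was not seen on them at that size.

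*Hhip*, a membrane protein that binds and sequesters Hedgehog ligands, was read by 2 probes on chromosome 8. On probe 1 it ranged from 7.44 to 7.77 in WT CONT mice and was 7.57, 7.26, 7.46, 7.31 and 7.07 in WT PCN mice, and the groups overlapped. The change was -0.30 (SE 0.15, limma adjusted p = 0.166) in WT and 0.07 (SE 0.14, adjusted p = 0.827) in Pxr-/- mice. Probe 2 changed by -0.48 in WT mice (SE 0.13, adjusted p = 0.00816), a 1.40-fold lower signal that stayed under the fold threshold, and by -0.02 in Pxr-/- mice (adjusted p = 0.950). In Pxr-/- CONT mice *Hhip* varied more than in the other groups on probe 1, from 6.80 to 7.96.

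*Smo*, the transducer that Patched restrains, was the only one of the 6 members tested whose response to PCN differed between the genotypes by the test of the difference. Its signal was higher after PCN in WT mice, by just under the fold threshold, and not in Pxr-/- mice. Its probe lies at chr6:29711225-29711284 on the plus strand (mm9), and the last 30 of its 60 bases are shown because this call rests on it alone.
Smo probe 1: ttcaagaaccagacaacaggatgccttaga

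The *Smo* signal ranged from 9.06 to 9.68 with a median of 9.44 in WT CONT mice. In WT PCN mice it was 10.08, 9.83, 10.07, 10.01 and 10.06. In Pxr-/- mice it ranged from 9.56 to 10.05 with a median of 9.76 in CONT and from 9.24 to 10.00 with a median of 9.63 in PCN animals. All 5 WT PCN mice lay above all 6 WT CONT mice, whereas the Pxr-/- groups overlapped over most of their range. Of all genes, 12.4% had groups that did not overlap in WT mice. The change in WT mice was 0.57 (SE 0.12, limma adjusted p = 0.00129), a 1.48-fold higher signal, and in Pxr-/- mice -0.17 (SE 0.11, adjusted p = 0.388). The difference between them was 0.74 (SE 0.16, 95% interval 0.41 to 1.07, adjusted p = 0.0171), where 0.807% of all genes were called in this direction and 0.242% in the other.

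The *Smo* difference between genotypes was 0.85 within washing batch 1 and 0.64 within batch 2, and neither passed the test on these fewer arrays (limma adjusted p = 0.161 and 0.238). With the scanner's processed signal it was 0.71 and also missed the threshold (adjusted p = 0.0515). The control arrays enter this difference, and among them *Smo* was 0.35 higher in Pxr-/- than in WT mice (SE 0.11, adjusted p = 0.210). That gap between the control groups was not called. The second *Smo* probe (chr6:29687915-29687974) was not well above background on any of the 23 arrays, so no other probe reads this gene.

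*Sufu*, which binds Gli proteins and holds them back, was not called in any comparison. On its brightest probe, on chromosome 19, the signal ranged from 6.18 to 6.47 in WT CONT and from 6.08 to 6.49 in WT PCN mice. It ranged from 6.13 to 6.37 in Pxr-/- CONT and from 6.14 to 6.39 in Pxr-/- PCN mice. The changes were -0.08 (95% interval -0.24 to 0.08, limma adjusted p = 0.521) in WT mice and -0.003 (95% interval -0.16 to 0.15, adjusted p = 0.988) in Pxr-/- mice. A second kept probe gave 0.07 and -0.02, and the remaining probes 3 and 4 did not pass the filter on background.

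The Gli transcription factors were dim in whole liver. *Gli1*, a standard readout of pathway activity, was well above background on 15 of 23 arrays, that is on 4 of 6 WT CONT, 3 of 5 WT PCN, 3 of 6 Pxr-/- CONT and 5 of 6 Pxr-/- PCN arrays. Its signal was 5.07 to 6.01 in WT CONT and 5.01 to 5.72 in WT PCN mice, with a change of -0.07 (SE 0.18, limma adjusted p = 0.809). In Pxr-/- mice it was 5.11 to 5.63 in CONT and 5.12 to 6.23 in PCN animals, with a change of 0.39 (SE 0.17, adjusted p = 0.175). A total of 5 of the 6 Pxr-/- PCN mice lay above every Pxr-/- CONT mouse, but the group mean did not pass the test. The difference between the genotypes was -0.46 (95% interval -0.97 to 0.04, adjusted p = 0.401).

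*Gli3*, which mainly acts as a repressor when the pathway is off, was well above background on all arrays. It ranged from 5.54 to 5.78 with a median of 5.62 in WT CONT mice and was 5.86, 5.89, 5.85, 6.05 and 5.89 in WT PCN mice. These groups did not overlap, as was so for 12.4% of all genes in WT mice. The change was 0.26 (SE 0.09, limma adjusted p = 0.0393), a 1.20-fold higher signal that was under the fold threshold. In Pxr-/- mice *Gli3* ranged from 5.54 to 5.80 in CONT and from 5.44 to 6.10 in PCN animals, a change of 0.16 (SE 0.08, adjusted p = 0.270). *Gli2*, the main activator of the family, was not well above background on any array, with raw log2 signals of 4.39 to 5.09, so nothing can be said of its change.

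Of the 6 members tested beside *Ihh*, none was called after PCN in either genotype, where 3.79% of all genes were called higher and 2.39% lower in WT mice, and 1.42% higher and 0.86% lower in Pxr-/- mice. Without the fold threshold, 2 of the 6 (*Smo* and *Gli3*) passed the adjusted p in WT mice, beside 24.1% of all genes. At an unadjusted limma p under 0.05, *Ptch1*, *Smo* and *Gli3* passed in WT mice and *Gli1* in Pxr-/- mice, beside 35.9% and 22.9% of all genes. The same 6 genes gave no call for genotype in control mice, where 0.309% of all genes were called in either direction, or for genotype averaged over treatments. At an unadjusted p under 0.05, *Smo* alone passed in the first of these comparisons and 0 of the 6 in the second, beside 12.2% and 24.8% of all genes.

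**Figure D3:**
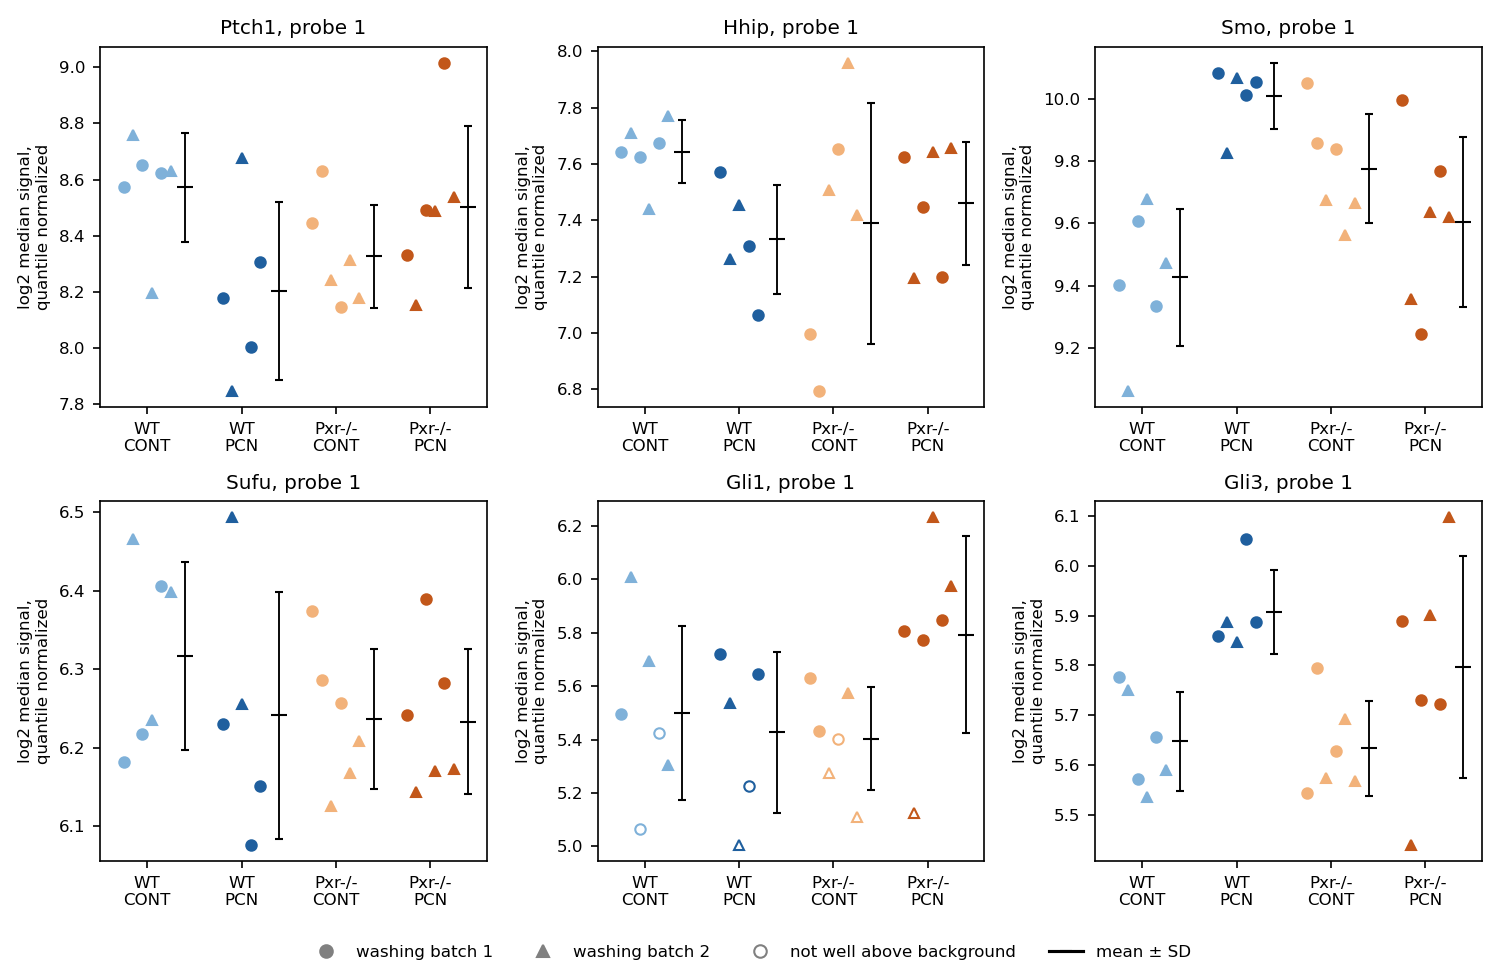
Normalized log2 signal of the brightest probe of *Ptch1*, *Hhip*, *Smo*, *Sufu*, *Gli1* and *Gli3* on each of 23 arrays, by group, with symbols as in the plot of *Ihh* and black bars for mean ± SD. Each panel has its own vertical axis, and the WT PCN arrays stand clear of the WT CONT arrays for *Smo* (9.83 to 10.08 against 9.06 to 9.68) and *Gli3*.

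**Figure D4:**
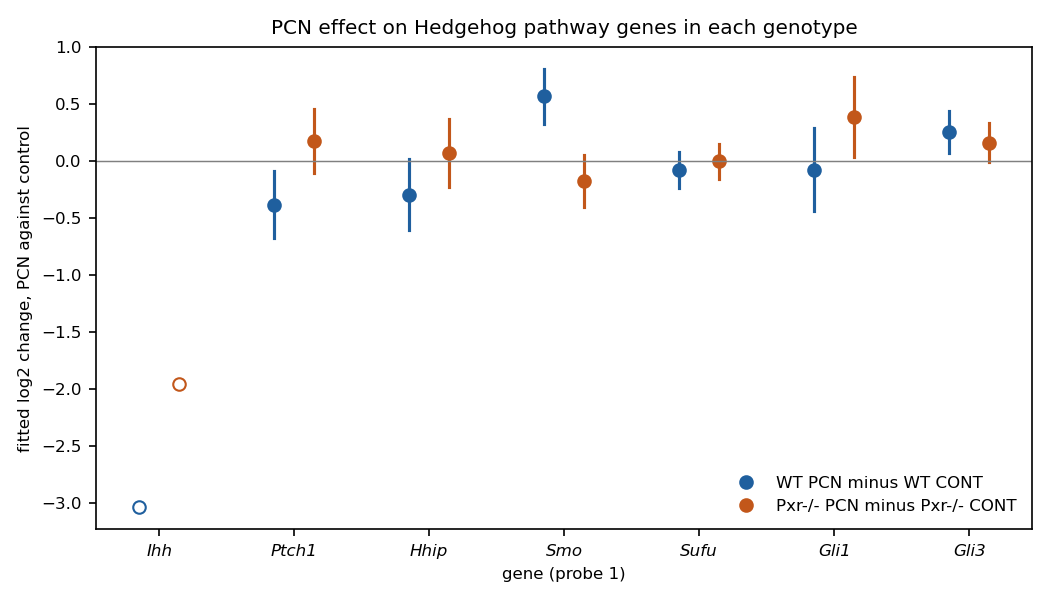
Fitted log2 change after PCN for the 7 members with a kept probe, in WT (blue) and Pxr-/- (orange) mice, with vertical lines for the 95% interval. *Ihh* is drawn as open circles without an interval because it was selected for these changes, at -3.04 and -1.96, while the other members lie between -0.38 and 0.57.

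Another 60 genes of the pathway were listed by role, of which 53 had a kept probe. After PCN in WT mice 4 were called higher and 2 lower, beside 3.79% and 2.39% of all genes. In Pxr-/- mice 1 was called higher and 2 lower, beside 1.42% and 0.86% of all genes. The median change of the 53 genes was -0.003 in WT and 0.02 in Pxr-/- mice, beside -0.02 and -0.01 over all genes. None of the 53 was called by limma for the difference between genotypes or for genotype in control mice, and 8 and 5 of them passed an unadjusted p under 0.05 there, beside 15.1% and 12.2% of all genes. The 8 cilium genes (the organelle in which Smoothened works) gave no call in either genotype by limma, nor did the 6 kept genes for ligands and their release. At an unadjusted p under 0.05 these lists had 0 and 3 genes in WT and 1 and 1 in Pxr-/- mice, beside 35.9% and 22.9% of all genes. Of the other ligands, *Dhh* changed by 0.03 in WT (limma adjusted p = 0.815) and 0.07 in Pxr-/- mice (adjusted p = 0.667), and *Shh* was well above background on 3 of 23 arrays and was not tested.

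The largest change on that list was the fall of *Mycn*, a proto-oncogene and known Gli target in the developing nervous system. It ranged from 7.33 to 8.59 with a median of 8.10 in WT CONT mice and was 5.80, 6.37, 6.63, 6.41 and 6.02 in WT PCN mice. In Pxr-/- mice it ranged from 7.47 to 9.11 in CONT and from 6.13 to 7.27 in PCN animals. Treated and control mice did not overlap in either genotype, beside 12.4% of all genes in WT and 3.15% in Pxr-/- mice. *Mycn* fell in both, with a change of -1.83 in WT (SE 0.26, limma adjusted p = 4.80e-05) and of -1.62 in Pxr-/- mice (SE 0.25, adjusted p = 9.51e-04), and with a difference of -0.21 (SE 0.36, adjusted p = 0.847).

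Among the reception and transduction genes, *Gas1*, a co-receptor that helps ligand reach Patched, fell in Pxr-/- mice by 0.75 (SE 0.14, limma adjusted p = 0.00298). The Pxr-/- groups overlapped (7.56 to 8.53 in CONT, 6.55 to 7.81 in PCN). In WT mice its change was -0.58 (SE 0.14, adjusted p = 0.00558), just under the fold threshold. The WT groups did not overlap (7.70 to 8.27 in CONT, 7.23 to 7.63 in PCN), as was so for 12.4% of all genes. *Btrc*, a ubiquitin ligase subunit that takes part in Gli processing, fell by 0.59 in WT mice (SE 0.09, adjusted p = 1.24e-04) on its brightest probe, from 7.03 to 7.43 in CONT to 6.48 to 6.81 in PCN mice. A dimmer kept *Btrc* probe changed by 0.05 (adjusted p = 0.763), so the probes of this gene disagreed. The call of *Btrc* rested on a change near the fold threshold and was lost in 9 of 14 other settings, among them the deposited values (-0.47) and normexp (-0.46), and in 8 of 23 fits that each left out 1 array (-0.63 to -0.54 over the 23).

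The genes called higher in WT mice were all on the list of known targets, which had 10 kept genes. Of all genes, 3.79% were called higher in WT mice, but the list was chosen with earlier results of these data known. *Foxm1*, a cell cycle transcription factor, rose by 1.00 in WT (SE 0.19, limma adjusted p = 8.22e-04) and by 0.62 in Pxr-/- mice (SE 0.18, adjusted p = 0.0476). Only 2 of the 6 Pxr-/- CONT mice (5.27 to 5.53) had a *Foxm1* signal that stood clear of background, against all 6 Pxr-/- PCN mice. The rise in Pxr-/- mice was therefore read mostly from control signals near background. In WT mice the signal stood clear in 5 of 6 controls and in all 5 treated animals. The call in Pxr-/- mice was lost in 8 of 14 other settings, among them the deposited values (0.64, adjusted p = 0.0715) and each washing batch alone, and in 17 of 23 fits that each left out 1 array. *Pdgfra*, a receptor of mesenchymal cells, rose by 0.81 (SE 0.20, adjusted p = 0.00555) in WT mice, and *Snai1*, a transcription factor of mesenchymal transition, by 0.70 (SE 0.16, adjusted p = 0.00258). Their changes in Pxr-/- mice were 0.41 (adjusted p = 0.211) and 0.37 (adjusted p = 0.146), and neither gene was called for the difference between genotypes (0.40, adjusted p = 0.549, and 0.33, adjusted p = 0.513). *Sox9*, a transcription factor of bile duct cells, rose by 0.76 in WT mice (SE 0.21, adjusted p = 0.0109), with 0.62 (adjusted p = 0.0607) in Pxr-/- mice. Averaged over treatments *Sox9* was 0.69 lower in Pxr-/- than in WT mice (SE 0.14, adjusted p = 0.00752), the single pathway call for genotype. A dimmer kept *Sox9* probe rose by 0.30 in WT mice (adjusted p = 0.0289), under the fold threshold. The same probe gave 0.07 for PCN in Pxr-/- mice (adjusted p = 0.713) and -0.17 for genotype averaged over treatments (adjusted p = 0.123).

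Markers of stellate and bile duct cells were read beside these targets. Of 9 stellate and fibroblast markers, the collagen genes *Col1a1* and *Col3a1* rose in WT mice by 3.17 and 2.18 (limma adjusted p = 2.33e-05 and 1.73e-04) and in Pxr-/- mice by 1.96 and 1.22 (adjusted p = 0.00628 and 0.0330). The other 7 were not called in either genotype. Their changes in WT mice were 0.41 (*Pdgfrb*), 0.39 (*Acta2*, adjusted p = 0.0273), 0.23 (*Hgf*), 0.09 (*Des*), 0.08 (*Reln*) and -0.02 (*Dcn*). *Lrat*, the retinol-esterifying enzyme of stellate cells, changed by -0.47 there (adjusted p = 0.0735). At an unadjusted limma p under 0.05, 5 of the 9 passed in WT and 3 in Pxr-/- mice, beside 35.9% and 22.9% of all genes. The log2 of the summed signal of this list ranged from 14.50 to 15.19 in WT CONT, 14.92 to 15.35 in WT PCN, 14.31 to 14.97 in Pxr-/- CONT and 14.37 to 15.32 in Pxr-/- PCN mice. Beside both these lists, 3.79% of all genes were called higher in WT and 1.42% in Pxr-/- mice. Of the 6 kept bile duct markers, *Sox9*, which like *Spp1* is also on the list of targets, was the 1 called after PCN, in WT mice. At an unadjusted limma p under 0.05, 3 of these 6 passed in WT and 3 in Pxr-/- mice. The median change of the bile duct list was 0.57 in WT and 0.61 in Pxr-/- mice. The list's summed signal ranged from 10.70 to 12.28 in WT CONT, 11.80 to 13.00 in WT PCN, 10.99 to 11.81 in Pxr-/- CONT and 11.29 to 12.57 in Pxr-/- PCN mice. The part of these cells in the changes of *Pdgfra*, *Snai1* and *Sox9* was not tested.

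**Figure D5:**
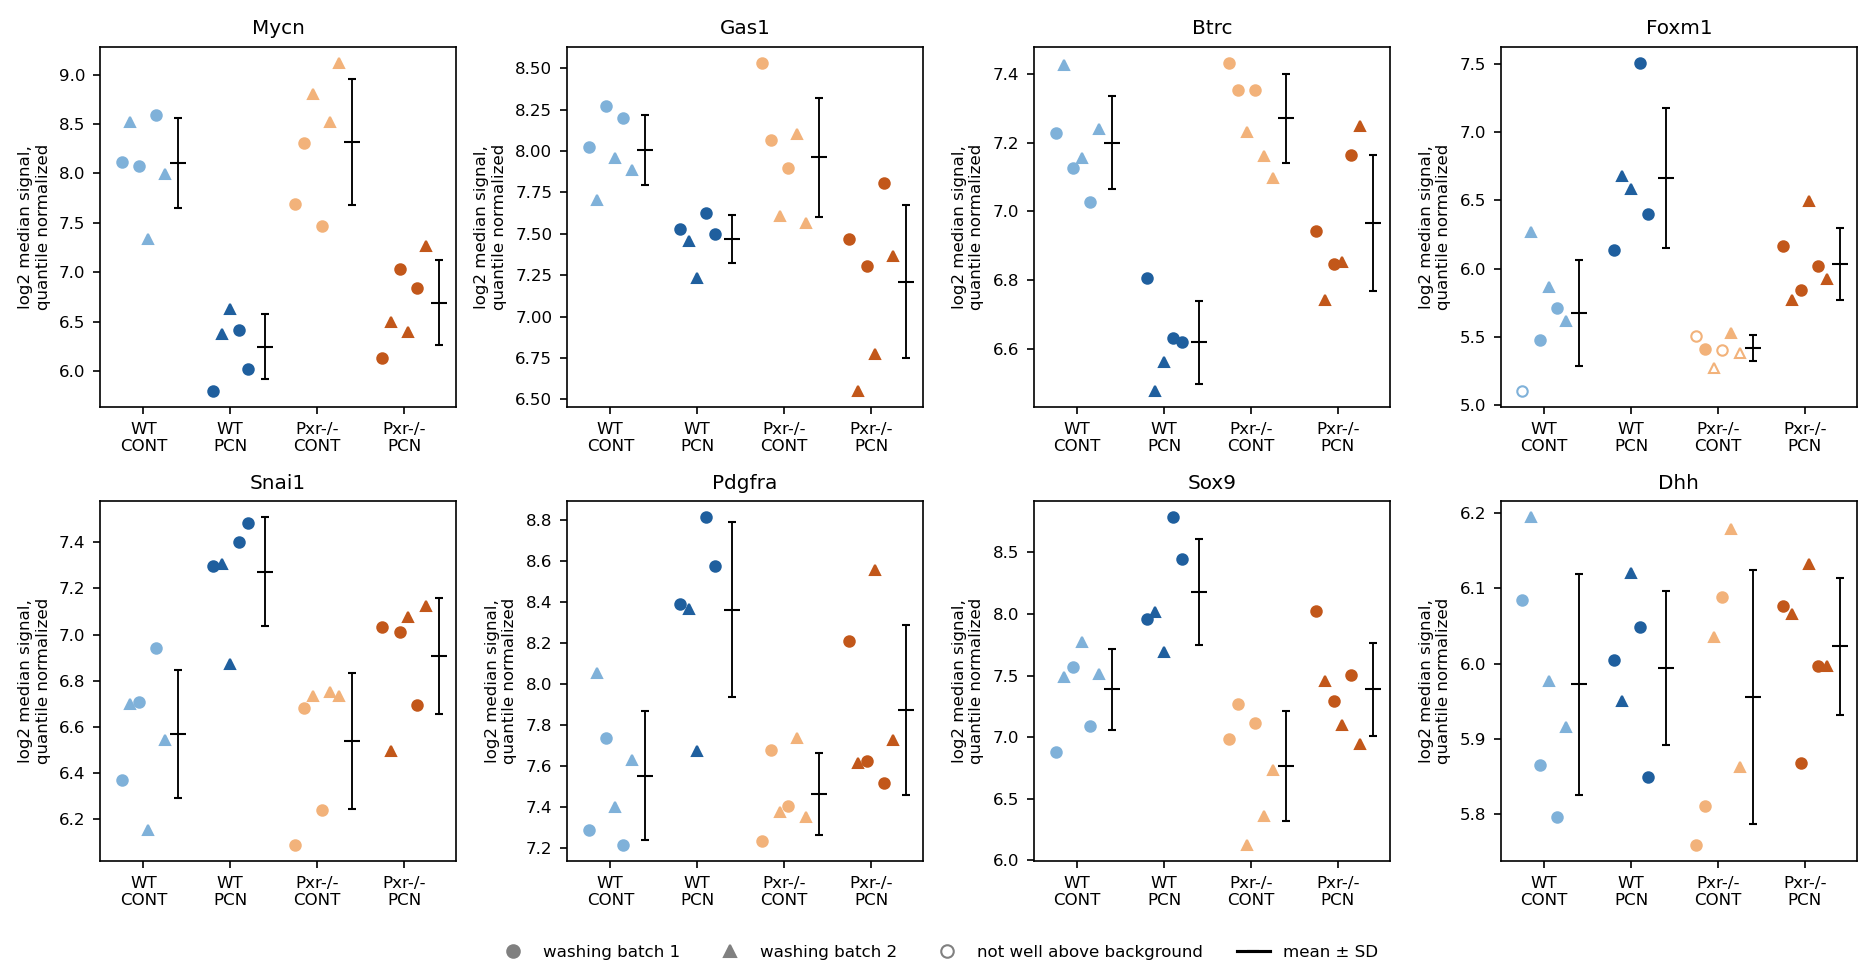
Normalized log2 signal of the 7 other pathway genes called in at least 1 comparison and of *Dhh*, on each of 23 arrays by group, with symbols as in the plot of *Ihh* and black bars for mean ± SD. Each panel has its own vertical axis. *Mycn* lies between 5.80 and 6.63 on WT PCN and between 7.33 and 8.59 on WT CONT arrays.

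The genes whose signal followed *Ihh* most closely over the 23 arrays, after removal of washing batch means and among 15057 named genes, were *Snx15* (Pearson's r = 0.951), *Cdc42bpa* (0.947), *Mycn* (0.942), *Foxn3* (0.938) and *Rufy3* (0.933). The most opposed were *Cldn14* (-0.952), *Cnot11* (-0.920) and *Cyb5a* (-0.916). These values describe mostly the shared difference between the 4 groups, for which *Ihh* was selected. With group means removed as well, the highest were *Dnajb1* (0.849), *Bicd2* (0.826), *Pgm2l1* (0.822), *Zdhhc14* (0.810) and *Gm38444* (0.809), and *Mycn* was no longer among the first 5. Of the pathway members, *Ptch1* gave 0.385 over all arrays and 0.433 with group means removed, *Smo* -0.493 and -0.251, *Gli3* -0.511 and 0.378, and *Hhip*, *Sufu* and *Gli1* lay between -0.182 and 0.193 in both.

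The promoter of *Ihh* is shown because *Ihh* carries the largest change of the members. RefSeq windows (GRCm38.p6) of the 250 bases before the start were found for 7 of the 8 members, without *Gli1*. Searched on both strands, the nuclear receptor half-site letters AGGTCA and AGTTCA were absent from all 7 windows, beside 14% and 11.8% of 32851 promoters of the same length that hold them. The Gli core CCACCCA was absent from all 7 as well and is held by 8.11% of promoters. The window of *Ihh* (chr1:74951673-74951922, minus strand) is printed with CG dinucleotides in capitals. It holds 24 of them, more than 88% of all promoter windows, whose median is 6.
Ihh promoter: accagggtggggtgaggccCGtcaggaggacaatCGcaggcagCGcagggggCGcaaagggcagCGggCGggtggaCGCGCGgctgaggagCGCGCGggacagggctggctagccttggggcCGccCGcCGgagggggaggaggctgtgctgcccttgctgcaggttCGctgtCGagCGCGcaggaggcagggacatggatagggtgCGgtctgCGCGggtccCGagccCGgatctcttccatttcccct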

How the data were processed

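Per the file headers, the deposited scanner files give every spot's intensity as the scanner software wrote it, on a linear scale and with no normalization between arrays. The submitters' processing notes name Agilent Feature Extraction 10.10.1.1 and limma. The authors also deposited normalized log2 values of the same arrays, made from filtered median signals by washing batch correction and CrossNorm, whose details are not given in the sources used here. They served as an alternative.

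Here outlier-flagged spots (2225) were set to missing, log2 median signals (the signal the methods name) of spots of 1 probe were averaged, probes that were well above background on over 50% of any group's arrays were kept, and the rest were quantile normalized in place of CrossNorm. All 23 arrays entered 1 limma fit (limma 3.58.1, R 4.3.3, the package data.table at version 1.17.8) with group and washing batch as additive terms (18 residual degrees of freedom), on 32087 probes with 83 missing values. P-values were Benjamini-Hochberg adjusted over all probes, and a call needed an adjusted p of at most 0.05 and a change above 1.5-fold. The code was tested on simulated data. A gene was read from its kept probe of highest mean signal. Arrays give no counts, precision depends on how many mice each group had, and p-values set each change against the spread between mice.

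The groups, replicate numbers and washing batches came from the labels, and no value column was left without a sample (0). The members and the lists of pathway and marker genes were chosen with earlier results of these data known. All 8 members were named, every other pathway gene called in a comparison (up to 8 each), *Shh* and *Dhh*, and the genes most like *Ihh* (5 highest, 3 lowest, and 5 highest without group means, among genes with a RefSeq name). Fitted changes include the batch term, so they need not equal differences of group means. Probe coordinates and sequences are those of the array files (mm9), and promoters are from RefSeq (GRCm38.p6). Alternatives were other signals, normalizations, filters, batch terms and probes, a replicate block, each batch alone and each array left out.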

Additional observations from a re-analysis of the deposited data

Results flagged for a closer look

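Of 68 groups of values examined, 6 held 1 array far from the rest of its group, where chance alone gives about 1 in 20. These were *Ihh* probe 1 in Pxr-/- PCN replicate 6, at 8.83 with the next array at 8.03, and *Ptch1* probe 1 in WT CONT replicate 4, at 8.20 with the next at 8.57. *Smo* in WT PCN replicate 2 stood at 9.83 with the next at 10.01, still above all WT CONT arrays, and *Gli3* in WT PCN replicate 4 at 6.05 with the next at 5.89. The dim second probe of *Gli1* gave a raw log2 signal of 6.58 in Pxr-/- PCN replicate 3, the only array on which it was well above background, with the next at 5.17, while probe 1 stood at 5.77 on that array. *Gli2*, not well above background on any array, gave 5.09 in WT CONT replicate 6 with the next at 4.70.

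The response of *Smo* to PCN differed between the genotypes by 0.74 on the log2 scale (WT minus Pxr-/-, limma adjusted p = 0.0171).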

How the results depend on the processing

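*Ihh* kept its fall in both genotypes under all alternatives run. It moved beyond the spread between mice in WT mice within washing batch 1 (-3.66), within batch 2 (-2.27) and on the dimmer probe (-1.91), and in Pxr-/- mice on the dimmer probe (-1.06). Leaving out each array in turn gave -3.27 to -2.91 in WT and -2.12 to -1.84 in Pxr-/- mice, and the gap between genotypes was -1.66 in batch 1, -0.36 in batch 2 and -1.31 to -0.91 without each array. No member was called after PCN in WT mice in the fit of the text, but 1 (*Smo*, past the fold threshold) was with the deposited log2 values (0.73), stacked quantile normalization (0.72), slide as a block (0.64) and batch 1 alone (0.60), and 0 to 1 were without each array (1 without WT CONT replicate 3, 4 or 6 or WT PCN replicate 2). The first 2 of these settings raised the median change of all genes in WT mice from -0.02 to 0.11. The *Smo* difference between genotypes was 0.71 with the processed signal (limma adjusted p = 0.0515), 0.85 in batch 1 (adjusted p = 0.161) and 0.64 in batch 2 (adjusted p = 0.238), so 0 members were called under these 3 settings. It was 0.65 to 0.81 and called without each array, when 1 to 2 members were called (*Ptch1* too without WT PCN replicate 3). Each batch alone holds fewer arrays, and the cause of the other moves was not tested.

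Of the other pathway genes, 6 were called after PCN in WT mice, 2 (*Btrc*, *Mycn*) in batch 2 alone and 5 to 8 without each array. In Pxr-/- mice 3 were called, 0 in batch 1 alone, 1 (*Mycn*) in batch 2 alone and 2 to 4 without each array. For genotype averaged over treatments 1 was called (*Sox9*), 3 with the deposited values (*Ccnd1*, *Sox9*, *Spp1*), 2 with stacked quantile normalization, 0 with normexp, slide as a block, batch 1 alone or the dimmest probe, and 1 to 2 without each array (2 without Pxr-/- CONT replicate 2 or WT CONT replicate 6). By Spearman's rho, 2 of the 5 genes most like *Ihh* stayed the same. Of 1276 recomputed values of members, 58 had the other sign, with neither value called.

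Replicate numbers were not used as pairs in the fit of the text, and whether they pair the mice was not tested. Deviations of same-numbered arrays correlated from -0.170 to 0.611 (median 0.003, 33 pairs), and 7 of 23 arrays had their best partner under the same number. With the replicate block, the changes of *Ihh* were -3.02 and -1.96, the *Smo* difference 0.75 (adjusted p = 0.0208), and the calls among members were 0, 0 and 1. The other pathway genes gave 5 calls in WT and 4 in Pxr-/- mice.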
